A study of Caenorhabditis elegans with 8 samples.

Results

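The 10 genes described here encode receptors for serotonin, dopamine, tyramine and octopamine in Caenorhabditis elegans. They are ser-1, ser-4, ser-5 and ser-7 for serotonin, dop-1, dop-2 and dop-3 for dopamine, and ser-2, tyra-3 and octr-1 for tyramine and octopamine, taken by name from a table of 46748 genes. All 10 were found in the table. Neurons sorted by fluorescence from strain OH10689 were the source of total RNA for the 8 libraries. The strain carries otIs355, written rab-3(prom1)::2xNLS-TagRFP, in which a promoter of the synaptic vesicle gene rab-3 drives a red fluorescent protein in neuronal nuclei. All worms were untreated, and the labels used here give no age or stage. Each of 4 RNA samples gave 1 library with SoLo Ovation and 1 with SMARTseq V4 followed by Nextera XT, so the kits, with 4 libraries each, were compared on the same RNA. The SoLo libraries are the product of a ribodepletion approach, and SMARTseq V4 primes cDNA on the poly(A) tail.

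Serotonin, dopamine, tyramine and octopamine are small amines released by a few neurons of the worm, and they reach many others outside of synapses. The 10 receptors belong to the large family of receptors that cross the membrane several times and act through heterotrimeric G proteins. Depending on the receptor, binding of the amine acts through the stimulatory proteins of the Gq and Gs classes or through the inhibitory Gi/o class, and so raises or lowers transmitter release, feeding, egg laying and locomotion. The genes are best known for use in limited sets of neurons, and some of them, among them ser-1 and ser-2, are also known from muscle.

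Library totals lay between 2354681 and 3454199 counts in SoLo and between 4510927 and 7099497 counts in SMARTseq. The 10 genes had between 21 and 3242 reads each in a library. After all libraries had been thinned to 2354681 counts, each of the 10 genes had at least 5 reads in all 8 libraries. The libraries of RNA sample 1 stood apart from the others in both kits. Markers of neurons were present, with all 10 genes of a fixed list tested and a mean summed level of 14517 CPM (TMM-scaled reads over each 1000000 reads of a library) in SoLo and 17532 CPM in SMARTseq. Gene by gene, 8 of these 10 markers were higher in SoLo by edgeR at an adjusted p under 0.05, against 1 for SMARTseq. The latter was egl-21, whose SMARTseq mean was 10999 CPM and whose SoLo mean was 3701 CPM. The higher neuron sum of SMARTseq came from this gene. Markers of body wall and pharyngeal muscle summed to 6527 and 4123 CPM, those of intestine to 179 and 29.7 CPM, and those of glia to 14.7 and 121 CPM. Most of the glia sum of SMARTseq was hlh-17, with a mean of 108 CPM there against 5.52 CPM in SoLo. Of the 5 glia genes 2 were tested. hlh-17 passed towards SMARTseq and kcc-3 did not pass (edgeR adjusted p = 0.0687). The untested genes mir-228, ptr-10 and fig-1 had few reads. The part of RNA from other cell types in the levels below was not tested.

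As a family the receptor genes did not follow 1 kit. With edgeR's quasi-likelihood test and an adjusted p under 0.05, 3 of the 10 genes were higher in SoLo (ser-1, ser-4 and dop-2), 3 were higher in SMARTseq (ser-7, ser-2 and tyra-3) and 4 passed in neither direction. Of all 11378 genes tested, 47.6% were called, 20% higher in SoLo and 27.6% higher in SMARTseq, so the number of called receptor genes was near the background. With the RNA sample as a block, 7 of the 10 were called, against 61.1% of all genes tested. The median log2(SoLo/SMARTseq) of the 10 genes was -0.14, and that of all tested genes 0.01. What set the genes apart from each other was the size of the difference, which ran from 5.06-fold higher in SoLo for ser-1 to 8.11-fold higher in SMARTseq for ser-7. The 4 libraries of a kit did not overlap with those of the other for 6 of the 10 genes, as for 46.2% of all genes tested.

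**Figure D1:**
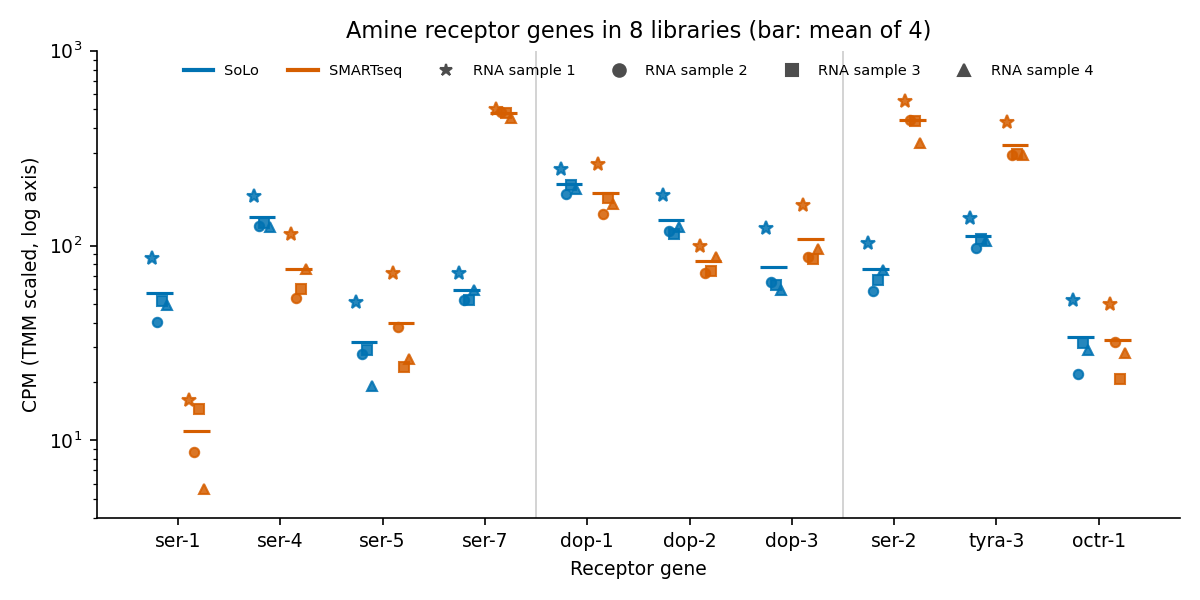
Level of each receptor gene in each library, in CPM scaled with TMM factors on a log axis, in blue for SoLo and orange for SMARTseq, with a symbol for each RNA sample and a bar at the mean of 4 libraries. ser-1 is the one with the lowest SMARTseq values, 5.60 to 16.1 CPM, and ser-7, ser-2 and tyra-3 lie between 290.2 and 549 CPM in the SMARTseq libraries and between 52.6 and 138 CPM in the SoLo libraries.

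Among the serotonin receptors, ser-1 and ser-7 moved furthest and in opposite directions. ser-1, at chromosome X 16579745 to 16587624 on the plus strand (WBcel235), encodes a Gq-coupled receptor that egg laying in response to serotonin depends on. ser-1 had 86.7, 40.6, 52.1 and 49.8 CPM in SoLo libraries 1 to 4 and 16.1, 8.66, 14.5 and 5.60 CPM in SMARTseq libraries 1 to 4. Every SoLo library was above every SMARTseq library, and the values within SMARTseq spread widely, resting on 95, 37, 83 and 21 reads. For ser-1, log2(SoLo/SMARTseq) was 2.34 ± 0.37 (SE, n = 4 libraries per kit, edgeR adjusted p = 0.000682), and SoLo was higher by 1.84 to 3.15 on the log2 scale within each of the 4 RNA samples.

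ser-7, at chromosome X 2673572 to 2682384 on the plus strand, encodes a Gs-coupled receptor with a known part in the serotonin response of pharyngeal pumping. ser-7 had 72.1, 52.6, 52.6 and 58.8 CPM in SoLo libraries 1 to 4 and 502, 482, 478 and 453 CPM in SMARTseq libraries 1 to 4. The kits were far apart, and the SMARTseq libraries differed little among themselves. For ser-7, log2(SoLo/SMARTseq) was -3.02 ± 0.16 (edgeR adjusted p = 8.6e-07), the largest difference of the 10 genes. The ratio of ser-7 to ser-1 reads, in which the scaling of libraries cancels, was 0.832, 1.30, 1.01 and 1.18 in SoLo libraries 1 to 4 and 31.2, 55.7, 33.0 and 81.0 in SMARTseq libraries 1 to 4. The same RNA thus had about as many ser-1 as ser-7 reads in one kit and a large excess of ser-7 reads in the other.

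ser-4, at chromosome III 1723198 to 1733101 on the minus strand, encodes a Gi/o-coupled receptor through which serotonin slows locomotion. ser-4 had 179, 126, 130 and 125 CPM in SoLo libraries 1 to 4 and 115, 53.6, 59.8 and 75.4 CPM in SMARTseq libraries 1 to 4. The ranges did not overlap, although SMARTseq library 1 came close to the lower SoLo libraries. For ser-4, log2(SoLo/SMARTseq) was 0.88 ± 0.26 (edgeR adjusted p = 0.0183). The call was lost without SMARTseq library 3 (adjusted p = 0.0605, edgeR) and without RNA samples 2, 3 or 4 in both kits (0.0696, 0.0889 and 0.067), with a direction that stayed towards SoLo in each.

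ser-5, at chromosome I 8384931 to 8387039 on the plus strand, encodes a serotonin receptor with known roles in feeding and in responses to aversive odours. ser-5 had 51.6, 27.9, 28.9 and 19.02 CPM in SoLo libraries 1 to 4 and 72.5, 38.4, 23.8 and 26.1 CPM in SMARTseq libraries 1 to 4. Library 1 was the highest in each kit and the ranges overlapped. For ser-5, log2(SoLo/SMARTseq) was -0.34 ± 0.41 (edgeR adjusted p = 0.536), and within RNA samples it ran from -0.49 to 0.28, and the sign turned when only library totals were used for scaling (0.21) and without SMARTseq library 1 (0.10).

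Of the dopamine receptors, 1 was called, dop-2, and all 3 differed less between the kits than ser-1, ser-7 or ser-2. dop-1, at chromosome X 4411301 to 4418851 on the minus strand, encodes the receptor most like the stimulatory dopamine receptors of mammals. dop-1 had 249, 185, 204 and 195 CPM in SoLo libraries 1 to 4 and 262, 146, 175 and 163 CPM in SMARTseq libraries 1 to 4. The kits overlapped along most of their ranges. For dop-1, log2(SoLo/SMARTseq) was 0.16 ± 0.20 (edgeR adjusted p = 0.552), between -0.07 and 0.34 within RNA samples, and when only library totals were used for scaling, dop-1 was called higher in SoLo at 0.70 (edgeR adjusted p = 0.0172).

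dop-2, at chromosome V 9608556 to 9614940 on the plus strand, encodes an inhibitory receptor known as an autoreceptor of dopamine neurons. dop-2 had 182, 119, 114 and 125 CPM in SoLo libraries 1 to 4 and 99.3, 72.5, 73.8 and 87.2 CPM in SMARTseq libraries 1 to 4. All SoLo libraries lay above all SMARTseq libraries. For dop-2, log2(SoLo/SMARTseq) was 0.70 ± 0.20 (edgeR adjusted p = 0.0162), with SoLo higher in 4 of 4 RNA samples. The call was lost without SMARTseq library 2 (edgeR adjusted p = 0.0522), without SMARTseq library 3 (0.0553) and without RNA samples 2, 3 or 4 in both kits (0.0608, 0.0602 and 0.0563).

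dop-3, at chromosome X 6564175 to 6569724 on the minus strand, encodes the inhibitory receptor that opposes dop-1 in motor neurons when dopamine slows locomotion. dop-3 had 122, 65.0, 62.7 and 59.1 CPM in SoLo libraries 1 to 4 and 162, 87.1, 85.3 and 96.5 CPM in SMARTseq libraries 1 to 4. Library 1 was far above the other 3 in each kit, and the kits overlapped through it. For dop-3, log2(SoLo/SMARTseq) was -0.48 ± 0.30 and did not pass (edgeR adjusted p = 0.221). SMARTseq was higher in 4 of 4 RNA samples, by 0.41 to 0.71 on the log2 scale, and with the RNA sample as a block dop-3 was called at -0.49 ± 0.12 (edgeR adjusted p = 0.00384), but not with the block once RNA samples 2 to 4 were summed (-0.34, edgeR adjusted p = 0.105). Without RNA sample 1 it was called without a block (-0.55, adjusted p = 0.00313, edgeR), as it was without SoLo library 1 alone (-0.75, adjusted p = 0.0372). Over all fits with a library or RNA sample left out, dop-3 ran from -0.75 to -0.24, with edgeR adjusted p up to 0.481. Its value was 0.07 when only library totals were used for scaling.

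The tyramine and octopamine receptors held 2 of the 3 genes higher in SMARTseq. ser-2, at chromosome X 15286533 to 15302963 on the minus strand, encodes a Gi/o-coupled tyramine receptor. ser-2 had 103, 58.6, 66.2 and 75.05 CPM in SoLo libraries 1 to 4 and 549, 441, 437 and 335 CPM in SMARTseq libraries 1 to 4. Every SMARTseq library held several times the level of every SoLo library. For ser-2, log2(SoLo/SMARTseq) was -2.54 ± 0.23 (edgeR adjusted p = 1.66e-05), or 5.82-fold higher in SMARTseq.

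tyra-3, at chromosome X 4948049 to 4955358 on the plus strand, encodes a receptor activated by tyramine and octopamine that is known from natural variation in the decision to leave a food patch. tyra-3 had 138, 97.1, 108 and 106 CPM in SoLo libraries 1 to 4 and 432, 290.2, 295 and 292 CPM in SMARTseq libraries 1 to 4. The ranges were well apart and RNA sample 1 was the highest in both. For tyra-3, log2(SoLo/SMARTseq) was -1.54 ± 0.19 (edgeR adjusted p = 0.000129) and lay between -1.65 and -1.44 within RNA samples, the narrowest spread of ratios of the 10 genes. When RNA samples 2 to 4 were summed within each kit, with no block, tyra-3 was -1.46 and not called (edgeR adjusted p = 0.0623).

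octr-1, at chromosome X 5609110 to 5611255 on the minus strand, encodes a Gi/o-coupled octopamine receptor of sensory neurons with a known role in the control of innate immunity. octr-1 had 52.7, 21.9, 31.6 and 29.1 CPM in SoLo libraries 1 to 4 and 50.1, 31.8, 20.6 and 28.0 CPM in SMARTseq libraries 1 to 4. The 2 sets of values covered almost the same range. For octr-1, log2(SoLo/SMARTseq) was 0.05 ± 0.34 (edgeR adjusted p = 0.914), between -0.54 and 0.61 within RNA samples, and its sign turned without SoLo library 1 (-0.21), without SMARTseq library 3 (-0.14) or 4 (-0.05) and without RNA sample 3 (-0.08).

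**Figure D2:**
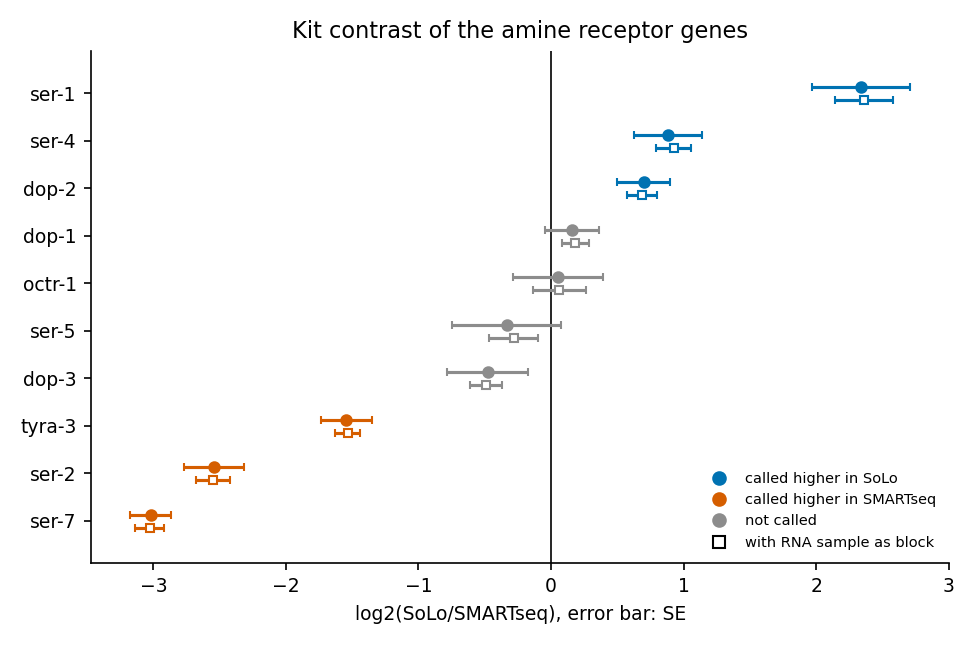
log2(SoLo/SMARTseq) of the 10 receptor genes from edgeR, with the standard error as bars, from the fit without a block (circles) and with the RNA sample as a block (open squares). Colours give the call of the fit without a block. The block narrows the errors and leaves the order as it was, from ser-1 at 2.34 to ser-7 at -3.02.

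The kits also ordered the receptors differently. Levels of different genes are compared here as CPM per kilobase of exon. In SoLo the order from the highest mean was ser-4, dop-1, tyra-3, dop-2, dop-3, ser-2, ser-7, ser-1, octr-1 and ser-5. The highest mean, that of ser-4 with 92.3 ± 17.2 CPM per kilobase (SD, n = 4), was 4.71 times the lowest, that of ser-5 with 19.6 ± 8.53. Of the 9 pairs of neighbours in this order, 1 did not overlap in range over the 4 libraries, which was dop-1 (76.8 to 103 CPM per kilobase) above tyra-3 (44.1 to 62.5). The other 8 pairs of neighbours in SoLo overlapped.

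In SMARTseq the order was ser-7, ser-2, tyra-3, dop-1, ser-4, dop-3, dop-2, ser-5, octr-1 and ser-1. The mean of ser-7, 255 ± 10.7 CPM per kilobase (SD, n = 4), was 50.4 times that of ser-1, 5.07 ± 2.22. Ranges did not overlap for 4 of the 9 pairs of neighbours: ser-7 above ser-2, tyra-3 above dop-1, dop-3 above dop-2 and octr-1 above ser-1. The levels of the receptors were thus spread over a wider range in SMARTseq. ser-7 was at rank 7 in SoLo and rank 1 in SMARTseq, and ser-2 at rank 6 and rank 2. ser-4 and dop-1, the leading pair of SoLo, were at ranks 5 and 4 in SMARTseq. With coding length in place of exon length, or with no length scaling, dop-1 was at rank 1 and ser-4 at rank 2 in SoLo, and ser-7 kept rank 1 and ser-1 rank 10 in SMARTseq. With coding length ser-2 was at rank 4 in SoLo. In SMARTseq, ser-7 and ser-2 overlapped on both of these scales. There tyra-3 and dop-1 overlapped with coding length, and dop-3 and dop-2 with no length scaling. octr-1 stayed above ser-1 without overlap on both.

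**Figure D3:**
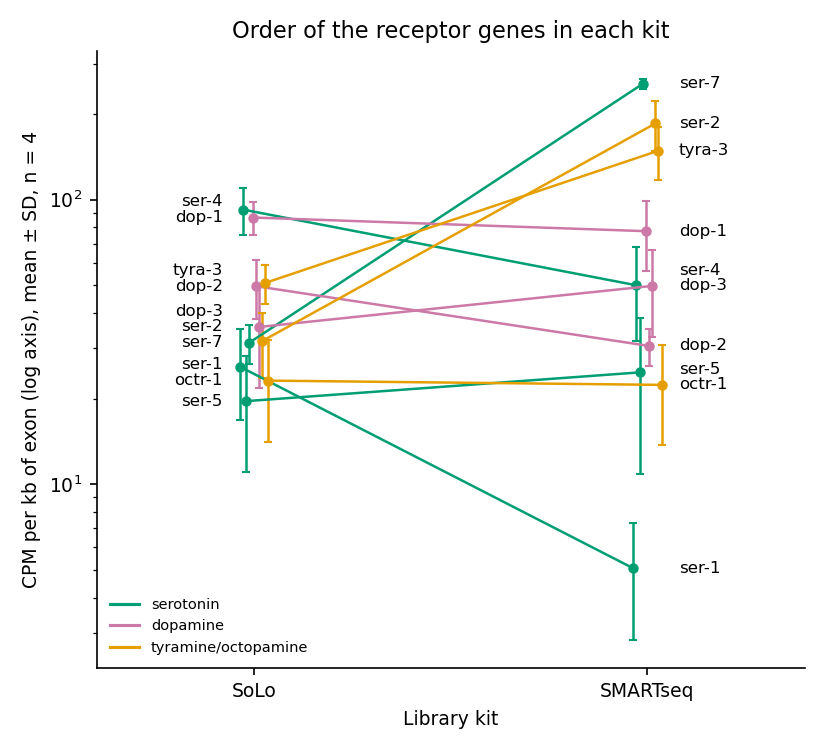
Mean level of each receptor gene per kilobase of exon in both kits, on a log axis with the SD over 4 libraries, joined by a line and coloured by amine. The lines of ser-7, ser-2 and tyra-3 rise from SoLo to SMARTseq and that of ser-1 falls to 5.07 CPM per kilobase.

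The division of reads among the 10 genes does not depend on how libraries are scaled, although it does depend on gene length. In SoLo, dop-1 took the largest share of the summed reads of the 10 genes, 22.6% ± 1.72 (SD, n = 4), followed by ser-4 with 15.1% ± 0.616 and dop-2 with 14.5% ± 0.71. In SMARTseq, ser-7 took 27.3% ± 3.39, ser-2 24.7% ± 2.41 and tyra-3 18.3% ± 0.746, so that these 3 genes held most of the reads. The share of ser-7 was 5.84% to 6.99% in the SoLo libraries and 22.2% to 29.2% in the SMARTseq libraries. The share of ser-1 was 6.04% ± 0.78 in SoLo and 0.617% ± 0.224 in SMARTseq. These shares are a description, with no test of their own. The summed level of the 10 genes was 930 ± 205 CPM in SoLo and 1784 ± 321 CPM in SMARTseq.

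**Figure D4:**
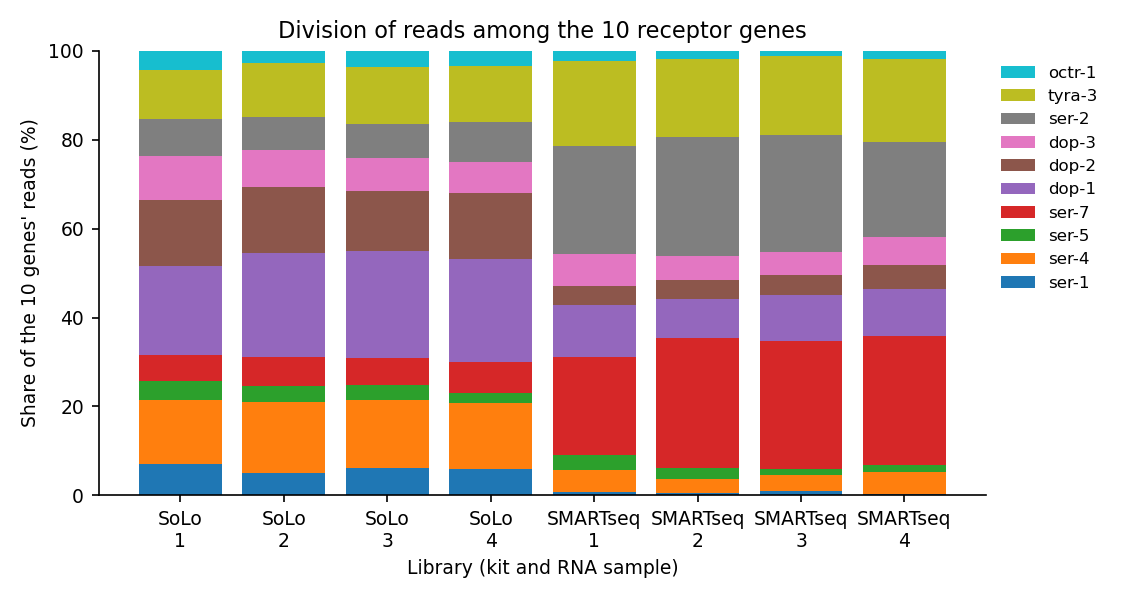
Share of each gene in the summed reads of the 10 receptor genes, in percent, as stacked bars for the 8 libraries. The bars are alike within a kit; ser-7, ser-2 and tyra-3 fill most of each SMARTseq bar, and dop-1, ser-4 and dop-2 take the largest shares in SoLo.

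Across the RNA samples, library 1 was the highest of the 4 libraries for all 10 receptor genes in both kits. Among all tested genes, library 1 was the highest in both kits for 24.4%. The level in library 1 over the mean of libraries 2 to 4 had a median of 1.54 in SoLo and 1.65 in SMARTseq over the 10 genes, against 0.957 and 0.965 over all genes with a ratio in both kits. The ratio was largest for ser-5, at 2.04 in SoLo and 2.46 in SMARTseq, and smallest in SMARTseq for ser-7, at 1.07. For dop-3 it was 1.97 and 1.81, and for octr-1 1.92 and 1.87. With 1 RNA sample against 3 these ratios have no test, and in bulk RNA more cells of a type cannot be told apart from more RNA per cell.

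Other amine receptor genes also tended to be high in RNA sample 1, while most genes of amine synthesis and transport were not. Library 1 was the highest in both kits for 5 of 6 other G protein-coupled amine receptor genes and for 3 of 4 genes of amine-gated channels, but for 1 of 9 genes of amine synthesis and transport, which was mod-5. The fixed neuron markers summed to 18325 CPM in SoLo library 1 and 13120 to 13377 CPM in SoLo libraries 2 to 4, with 3 of the 10 highest in library 1 of both kits. The peptide-processing genes egl-3 (8890 CPM in SoLo library 1 against 5443 to 5733 CPM) and egl-21 (5229 against 3058 to 3305 CPM) carried most of that excess. Of the others, unc-64, ric-4, snt-1 and snb-1 were at 0.774, 0.810, 0.817 and 0.894 of the mean of the other SoLo libraries. On the same measure rab-3, rgef-1, unc-31 and unc-104 were at 1.02, 1.06, 1.07 and 1.38. In SMARTseq the neuron markers summed to 21796.5 CPM in library 1 and 15586 to 16568 CPM in libraries 2 to 4. Intestine markers likewise had a higher sum in library 1. It was 243 CPM against 148 to 175 CPM in SoLo and 45.4 CPM against 22.5 to 25.6 CPM in SMARTseq. In SoLo library 1 most of it was vit-2 (121 CPM) and vit-6 (93.8 CPM). These genes and ifb-2 were highest in library 1 of both kits. elt-2 (8 reads in all SoLo libraries together) and ges-1 (18 reads) were not highest in SoLo library 1. Germline markers had a lower sum in library 1. It was 131 CPM against 194 to 228 CPM in SoLo and 122 CPM against 233 to 303 CPM in SMARTseq. glh-1, pgl-1 and gld-1 were lowest in library 1 of both kits. nos-3 was at 0.693 times the mean of the others in SoLo and 1.10 times in SMARTseq. mex-5 in library 1 lay within the range of the others in both kits. Muscle markers did not move as 1 set. unc-54, which holds most of their sum, was lower in SoLo library 1 (5129 CPM against 6164 to 6829 CPM), the other 5 were at 1.197 to 1.92 times the mean of the other SoLo libraries, and 3 of the 6 were highest in library 1 of both kits. The part of these markers in the receptor levels was not tested. Without RNA sample 1 in both kits, all 6 calls between the kits were kept in direction and dop-3 was added, which gave 3 receptor genes higher in SoLo and 4 in SMARTseq, where 58.3% of all genes tested in that fit were called.

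**Figure D5:**
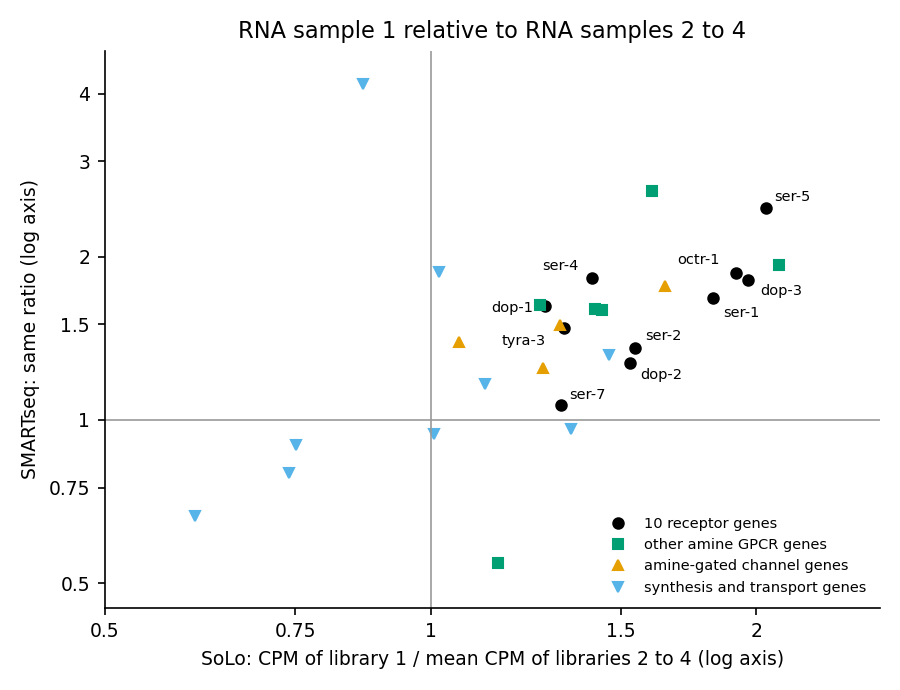
Level in library 1 over the mean level in libraries 2 to 4, for SoLo on the x axis and SMARTseq on the y axis, both on log axes, with 1 point per gene. All 10 receptor genes lie above 1 on both axes, with medians of 1.54 and 1.65, while genes of amine synthesis and transport are spread on both sides.

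Position and structure were compared across the 10 genes. Of the 10, 7 are on the X chromosome, which holds 15.2% of the tested protein-coding genes that were matched to the annotation. Their exons cover 1461 bases (octr-1) to 2717 bases (dop-2). Over all tested protein-coding genes log2(SoLo/SMARTseq) rose with log2 exon length, with a Pearson r of 0.299 across 10640 genes, which are not independent replicates. Over the 10 receptors r was -0.04 and Spearman's rho 0.09. The trend with length ran from -0.30 (ser-4) to 0.21 (dop-2) among the 6 called genes. Their smallest difference was 0.70, in dop-2. With the trend subtracted, dop-2 went from 0.70 to 0.48 and ser-4 from 0.88 to 1.19. The part of length in the kit differences was not tested. ser-1 and tyra-3 have exons of nearly the same summed length, 2214 and 2202 bases, and differed in opposite directions between the kits, at 2.34 and -1.54.

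No exon base was shared with another gene for 6 of the 10 receptors. ser-2 shares 150 bases with the non-coding gene C02D4.12 and ser-7 shares 75 bases with the non-coding gene T14G11.5, both on the opposite strand, and these had 2 and 8 reads in all SoLo libraries together and 0 reads in SMARTseq. dop-3 shares 33 bases with svh-2 and octr-1 24 bases with F14D12.1, also on the opposite strand. svh-2 had 869 reads in all SoLo libraries together and 989 in SMARTseq, and F14D12.1 had 27 and 57. The strand setting of the counting is not given in the sources used here, so reads over these bases cannot be assigned to a strand.

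Of 6 further G protein-coupled receptor genes (ser-3, ser-6, tyra-2, dop-4, dop-5 and dop-6), 1 was higher in SoLo and 0 were higher in SMARTseq by edgeR without a block. Of all genes tested, 20% and 27.6% were. Towards SMARTseq, 0 of them had an unadjusted p under 0.05 in that fit, and 0 were called by DESeq2. Towards SoLo these counts were 2 and 2, with dop-5 among them (DESeq2 adjusted p = 0.0261). By edgeR without a block dop-5 had 0.61 and did not pass (adjusted p = 0.0581). It passed without the filter (0.0436), with at least 50 reads in 4 libraries (0.0444) and with library totals as scaling (0.00276, all edgeR). The gene called higher in SoLo by edgeR without a block was dop-6, a receptor of the dopamine family. Its mean level was 47.5 ± 13.2 CPM with SoLo and 20 ± 12.1 CPM with SMARTseq (SD, n = 4). The log2(SoLo/SMARTseq) of dop-6 was 1.24 ± 0.40 (edgeR adjusted p = 0.0272). The call of dop-6 was lost when SoLo library 1 or 4 or SMARTseq library 2, 3 or 4 was left out, with adjusted p between 0.0503 and 0.0771 by edgeR. It was also lost without RNA samples 2, 3 or 4 in both kits (edgeR adjusted p = 0.0656, 0.100 and 0.120). The octopamine receptor gene ser-3 had 0.14 ± 0.34, with a sign that turned without SoLo library 1 (-0.18) or SMARTseq library 3 (-0.03), and the dopamine receptor gene dop-4 had -0.31 ± 0.26, which turned with library totals as the only scaling (0.23). With the RNA sample as a block, ser-6 (0.62), dop-5 (0.66) and tyra-2 (-0.38) were called as well, with edgeR adjusted p of 0.0242, 0.00165 and 0.0207, although tyra-2 turned to 0.15 when only library totals were used for scaling and was not called with the block once RNA samples 2 to 4 were summed (-0.29, edgeR adjusted p = 0.169).

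Among the ion channels opened by amines, lgc-50 stood out. This serotonin-gated channel gene had 96.8, 83.3, 75.8 and 69.5 CPM in SoLo libraries 1 to 4 and 13.9, 10.3, 9.79 and 13.3 CPM in SMARTseq libraries 1 to 4. The kits were far apart, and log2(SoLo/SMARTseq) of lgc-50 was 2.78 ± 0.21 (edgeR adjusted p = 5.12e-06). The dopamine-gated channel gene lgc-53 was also higher in SoLo, at 0.84 ± 0.23 (edgeR adjusted p = 0.0131), a call lost without RNA sample 3 (0.0949) or 4 (0.0541). The serotonin-gated chloride channel gene mod-1 had 0.52 ± 0.21 and did not pass without a block (edgeR adjusted p = 0.0705). It passed with the block at 0.54 (edgeR adjusted p = 0.00489) and in DESeq2 at 0.63 (adjusted p = 0.0346). The tyramine-gated channel gene lgc-55 had -0.14 ± 0.27 (edgeR adjusted p = 0.71).

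Genes that make and carry the amines had 1 of 9 members higher in SoLo and 4 in SMARTseq, against 20% and 27.6% of all genes tested. The serotonin reuptake transporter gene mod-5 was higher in SoLo by 1.73 ± 0.24 (edgeR adjusted p = 0.000279). Higher in SMARTseq were tbh-1, the octopamine-forming hydroxylase, at -2.07 ± 0.23, tdc-1, the tyrosine decarboxylase that forms tyramine, at -1.68 ± 0.16, and cat-2, the tyrosine hydroxylase of dopamine neurons, at -1.10 ± 0.19 (edgeR adjusted p = 7.05e-05, 2.55e-05 and 0.00124). With RNA samples 2 to 4 summed and no block, tdc-1 and cat-2 were no longer called (edgeR adjusted p = 0.0517 and 0.106).

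Genes of the G protein pathways that these receptors act on were called in both directions, with 9 of 20 towards SoLo and 8 towards SMARTseq, against 20% and 27.6% of all genes tested. Differences towards SoLo were largest for egl-10, an RGS protein that restrains Go, at 4.10 ± 0.24, grk-2, a receptor kinase, at 3.89 ± 0.18, and dgk-1, a diacylglycerol kinase, at 2.38 ± 0.17 (edgeR adjusted p = 1.48e-06, 6.93e-07 and 4.79e-06). grk-2 had 161 to 198 CPM in the SoLo libraries and 10.1 to 14.4 CPM in the SMARTseq libraries. Towards SMARTseq the largest were those of rgs-3, another RGS protein, at -2.78 ± 0.91, gsa-1, the Gs alpha subunit, at -2.14 ± 0.13, and pde-4, a cAMP phosphodiesterase, at -2.06 ± 0.15 (edgeR adjusted p = 0.0303, 1.47e-06 and 4.57e-06).

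rgs-3 had the largest ratio of RNA sample 1 to the others among the tested genes named here. It had 133, 15.5, 16.02 and 15.2 CPM in SoLo libraries 1 to 4 and 784, 159, 163 and 134 CPM in SMARTseq libraries 1 to 4. Library 1 was 8.55 times the mean of the others in SoLo and 5.15 times in SMARTseq, and within each RNA sample SMARTseq was higher. Its log2(SoLo/SMARTseq) was -4.28 when SoLo library 1 was left out and -1.77 when SMARTseq library 1 was, the latter not called (edgeR adjusted p = 0.0654), and it was also not called without SoLo libraries 2, 3 or 4 (adjusted p = 0.0808 to 0.0817) or without RNA samples 2, 3 or 4 (0.0851 to 0.0956, edgeR). With the RNA sample as a block it was -3.04 (edgeR adjusted p = 4.76e-09).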

How the data were processed

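The table deposited by the authors holds raw, unscaled counts per gene for each library. The submitters' processing notes name STAR, SAMtools and featureCounts and the build WBcel235. Versions, the strand setting and the handling of multiple alignments are not given in these sources. Columns that belong to no listed sample numbered 0. Kits were compared with edgeR 4.0.16 (R 4.3.3; quasi-likelihood) on all 8 libraries (TMM, filterByExpr by kit, no block), adjusted by Benjamini-Hochberg over 11378 genes, with calls at an adjusted p under 0.05. CPM use the TMM factors. SE was approximated by dividing the absolute log2 fold change by the root of F. The fit was tested on simulated data. Gene structure came from Ensembl release 115 of WBcel235, which matched 45386 of 46748 genes, and coordinates are 1-based. The libraries of the same number were taken as pairs of 1 RNA sample: the series text says that each sample was divided between the kits, and deviations from the kit means correlated at 0.741, 0.342, 0.333 and 0.298 in pairs 1 to 4. The highest correlation with another number was 0.312 for pair 3 and 0.317 for pair 4, so that pair 4 was not told apart by it. Whether they came from separate cultures is not stated, so the spread behind the p-values may be technical. Reads without molecular identifiers are not independent molecules. Alternatives were DESeq2 1.42.0, library totals as scaling, other filters, the block, RNA samples 2 to 4 summed, and each library or RNA sample left out. The receptor genes and all lists were chosen with earlier results of these data known. Genes named are the 10 receptors, the other amine receptors and channels, and, of the synthesis and transduction lists, up to 3 called genes per direction with the largest differences.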

Additional observations from a re-analysis of the deposited data

Results flagged for a closer look

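Of 60 sets of 4 libraries (30 genes in each kit), 12 held a library far from the other 3 by Dixon's test, which chance alone gives for about 1 in 20 sets. The genes share the same libraries, so the sets are not independent and their number is no test against that rate. Of the 12 libraries, 11 belonged to RNA sample 1 and were high. Among the receptor genes these were ser-4 in SoLo (179 CPM, others 125 to 130), dop-2 in SoLo (182 CPM, others 114 to 125), dop-3 in SoLo (122 CPM, others 59.1 to 65.0) and in SMARTseq (162 CPM, others 85.3 to 96.5), and tyra-3 in SMARTseq (432 CPM, others 290.2 to 295). Among the other amine receptors they were ser-3 (123 CPM, others 54.05 to 65.0), tyra-2 (103 CPM, others 71.98 to 73.4), dop-4 (37.6 CPM, others 25.6 to 26.8) and lgc-55 (78.5 CPM, others 46.2 to 49.1), all in SoLo. rgs-3 was so in both kits, with 133 CPM in SoLo (others 15.2 to 16.02) and 784 CPM in SMARTseq (others 134 to 163). The remaining library was SoLo library 4, low for tbh-1 with 39.4 CPM (others 51.7 to 54.04). The cause was not tested.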

How the results depend on the processing

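Of the 10 receptors, ser-1, ser-2 and ser-7 kept their direction and their call under every alternative run, and tyra-3 under all but the summing of RNA samples 2 to 4 without a block. The receptor genes called were 1 in SoLo and 2 in SMARTseq with that summing, against 3 and 3, 3 and 4 with the replicate block, and 3 and 3 with the block and the summing. Over all genes that summing called 490 higher in SoLo and 851 in SMARTseq of 14456 tested, against 2276 and 3139 of 11378. The block called 3290 and 3664 of 11378, and the block with the summing 3310 and 3758 of 14456. Leaving out a library or an RNA sample gave 1 to 3 in SoLo and 3 to 4 in SMARTseq. Over all genes these fits called from 1471 and 2415 of 11346 (without RNA sample 3) to 3004 and 3691 of 11479 (without RNA sample 1). Of the 39 genes of the other fixed lists, 13 were called higher in SoLo and 12 in SMARTseq, 20 and 9 when only library totals scaled the libraries, 6 and 5 with RNA samples 2 to 4 summed and no block, and 17 and 12 with that summing and the block; the counts of these lists with summing or with libraries left out were added after the data were seen. Over all genes, 42.0% of calls were higher in SoLo, and 64.5% with library totals, which moved the median log2(SoLo/SMARTseq) of all genes from 0.01 to 0.56 and that of the receptors to 0.41. Leave-one-out values of the receptors' median ran from -0.42 to 0.21. Signs turned with library totals for ser-5 (0.21), dop-3 (0.066), tyra-2 (0.15), dop-4 (0.23) and lgc-55 (0.41), none of them called. With libraries left out, values ran from -0.63 to 0.10 for ser-5, -0.21 to 0.32 for octr-1, -0.18 to 0.42 for ser-3 and -0.32 to 0.088 for lgc-55. With RNA samples 2 to 4 summed and no block, ser-4, dop-2, tyra-3, dop-6, lgc-53, tdc-1, cat-2 and rgs-3 were no longer called; that fit has fewer samples. The replicate block added dop-3, ser-6, tyra-2, dop-5 and mod-1 and removed no call of a gene named here, and with the block and RNA samples 2 to 4 summed dop-3 and tyra-2 were not called (edgeR adjusted p = 0.105 and 0.169). The fit without RNA sample 1 and with the block was added after the data were seen; in it dop-3 was -0.54. With thresholds of 1 or 10 reads in place of 5, all 10 receptors were detected in every library.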
